A study of Homo sapiens with 6 samples.

Results

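In EndoC-βH1 cells, 675 assembled transcript loci carried no gene name and held a mean of at least 50 normalized read counts over all 6 libraries. They were 11.6% of the 5827 unnamed loci in the authors' deposited count table, which lists 61695 loci in all. The loci were chosen by that mean count alone, and each was then joined by its identifier to the authors' deposited FPKM table (read levels scaled to transcript length and library depth) for its position and its FPKM in each group. EndoC-βH1 is an established human beta cell line derived from fetal pancreas. The study compared 3 control libraries with 3 libraries of cells kept for 24 h with IL-1β at 5, TNF-α at 10, IFN-γ at 50 and IL-17 at 100 ng/ml. The labels describe the controls as taken before exposure, whereas the extraction protocol describes cells kept without cytokines for 24 h, and time in culture cannot be told apart from treatment where the former holds. No label says whether the 3 libraries of a group stem from 3 cultures, and p-values may thus reflect technical spread only.

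A transcript assembler such as StringTie builds transcripts from aligned reads, and a locus that it cannot tie to a gene of the guiding annotation keeps only a serial identifier of the form MSTRG.n. Such loci can be long noncoding RNAs, antisense or enhancer-derived transcripts, extensions of known genes, retained introns, or pieces of repeated sequence. Inflammatory cytokines act on beta cells through receptors that activate STAT and NF-κB factors, and the response to IFN-γ runs through gamma-activated sites and, by way of IRF family factors, interferon-stimulated response elements. In the deposited FPKM table a position belongs to a bundle, a run of overlapping loci analysed together, so where a bundle holds several loci the place of the unnamed one inside it is not known, nor is its strand. How strand was treated in counting is not stated in these sources, and reads of overlapping or antisense genes cannot be told apart. All positions below are bundle positions on hg38, counted from 1.

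The sequences that the results turn on come from hg38 and are printed on its plus strand unless stated. The first 3 are windows of 300 bases at an end of a locus that lies alone in its bundle, 250 bases outside and 50 inside, and are shown because they hold a match to the interferon-stimulated core (TTTC, any 2 bases, TTTC) or to the gamma-activated site TTCNNNGAA, searched on both strands. Capitals mark the match. MSTRG.7284 rose, and its window is the left one at chr11:112746274-112746573, which holds the interferon-stimulated core on the minus strand.
MSTRG.7284 left: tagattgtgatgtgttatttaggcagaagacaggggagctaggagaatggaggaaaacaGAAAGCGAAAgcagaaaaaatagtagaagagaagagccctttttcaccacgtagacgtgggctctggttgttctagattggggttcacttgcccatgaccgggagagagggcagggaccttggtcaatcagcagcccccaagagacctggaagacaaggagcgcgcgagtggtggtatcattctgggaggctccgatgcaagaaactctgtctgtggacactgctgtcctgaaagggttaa
MSTRG.17033 had the largest rise, and its right window at chr17:47718031-47718330 holds a gamma-activated site.
MSTRG.17033 right: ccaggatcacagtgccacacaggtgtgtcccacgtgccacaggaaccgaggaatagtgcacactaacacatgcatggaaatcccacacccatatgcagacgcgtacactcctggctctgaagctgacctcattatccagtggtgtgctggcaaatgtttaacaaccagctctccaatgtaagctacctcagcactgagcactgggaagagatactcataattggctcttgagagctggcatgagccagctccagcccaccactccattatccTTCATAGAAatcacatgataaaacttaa
MSTRG.30273 fell, and its right window at chr4:119903588-119903887 holds a gamma-activated site as well.
MSTRG.30273 right: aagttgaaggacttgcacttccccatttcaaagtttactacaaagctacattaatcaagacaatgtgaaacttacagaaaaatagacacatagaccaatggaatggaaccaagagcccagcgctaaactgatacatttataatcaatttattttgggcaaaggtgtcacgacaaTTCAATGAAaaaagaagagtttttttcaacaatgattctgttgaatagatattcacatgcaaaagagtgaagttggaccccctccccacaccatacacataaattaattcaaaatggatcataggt
MSTRG.1801, the third most counted of the unnamed loci, lies in a bundle with a near copy of 28S ribosomal RNA. The first 300 of 366 matching bases are shown on the minus strand at chr1:91387292-91387591, with the mismatch in capitals. It is G4185T, with positions counted from 1 at the 5′ end of the RNA28SN2 gene.
MSTRG.1801 28S-like: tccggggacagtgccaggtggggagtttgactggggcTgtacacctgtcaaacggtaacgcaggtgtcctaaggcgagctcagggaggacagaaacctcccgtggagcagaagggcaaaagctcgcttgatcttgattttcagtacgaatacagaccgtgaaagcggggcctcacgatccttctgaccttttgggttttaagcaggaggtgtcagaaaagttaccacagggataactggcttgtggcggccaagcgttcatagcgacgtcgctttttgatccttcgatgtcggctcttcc

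Motif matches were counted at both ends of each bundle, and differences in their shares were not tested. Among the unnamed loci whose bundles hold no named locus, each bundle taken with the call of its first locus, the interferon-stimulated core was in 4 of 54 windows of risen loci (7.41%), 3 of 86 windows of fallen loci (3.49%) and 10 of 140 windows of loci not past the threshold (7.14%). Counted by bundle, with a match at either end, it was in 3 of 27 risen (11.1%), 3 of 43 fallen (6.98%) and 10 of 70 other bundles (14.3%). It was in 4.78% of 1694 windows at unnamed loci under 50 counts and in 3.57% of 35116 promoter windows of 300 bases from RefSeq (GRCh38.p14). The gamma-activated site was in 7.41% of windows of risen loci, 6.98% of fallen, 7.86% of the rest and 7.66% of the promoters. A match is a description of these letters and not of a bound factor.

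The libraries held beta cell transcripts. In the authors' deposited count table, 9 of 12 beta cell markers had means of at least 1000 counts, among them PDX1 at 17067 and the locus that holds INS at 47336. Of 19 markers of other cell types, 12 were under 50 counts, with the leukocyte markers PTPRC and CD3E at 1.69 and 0.143, and 5 were at or over 1000. Of these, the alpha cell marker IRX2 was at 4444, the acinar marker CPA1 at 1664 and the ductal marker KRT19 at 3245, while 5353 counts belong to a locus that joins GHRL and SEC13 and 23470 to one that joins CD68, EIF4A1, MPDU1 and SENP3, so that these 2 are not levels of GHRL or CD68 alone. The mean library held 40881975 normalized counts, and the unnamed loci of at least 50 counts took 1.23% of them. Values per library are not analysed here, since the tables give 1 mean, 1 fold change and its standard error (SE) per locus, and group means were worked out from these.

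The unnamed loci were sparsely read. Their mean counts had quartiles of 68.7, 104 and 193, against 372, 1275 and 3170 in the 13917 named loci of at least 50 counts. Of the 675 loci, 321 held 50 to 100 counts, 324 held 100 to 1000 and 30 held 1000 or more. The assembler gave 320 of them a single transcript, while 65 had more than 10 and the most divided had 105. At the threshold, MSTRG.37527, MSTRG.40080 and MSTRG.34280 were the lowest loci inside, at 50.0, 50.1 and 50.1 counts, and MSTRG.22052, MSTRG.15857 and MSTRG.17764 the highest outside, at 49.99, 49.97 and 49.6 counts. Only MSTRG.15857 of these 6 passed the test, with a log2 fold change of -0.88 ± 0.27 (SE; DESeq adjusted p = 0.00411) in the authors' deposited table.

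The bundles hold the unnamed loci in 3 settings. Alone in their bundle were 117 loci, with a median bundle length of 3540 bases, 34 shared a bundle with other unnamed loci only, and 524 shared one with named loci, with a median bundle length of 156989 bases. The 675 loci fell into 586 bundles. Of the 117 loci alone, 69 shared no base with a gene of GENCODE 44, a later annotation on the same build, and 46 shared an exon base, 38 of them with a long noncoding RNA. Only 7 of the 117 touched a protein-coding gene, and 34 lay over 50 kb from one. For loci in shared bundles an overlap says only that a gene lies in the same bundle.

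Both rises and falls were found. By the deposited DESeq adjusted p under 0.05, 184 of the 675 unnamed loci (27.3%) were higher with cytokines, against 18.0% of all 30206 loci tested, and 128 (19.0%) were lower, against 19.7%. The other 363 did not pass. Higher by at least 2-fold were 70, or 10.4% against 6.53% of all loci and 6.56% of named loci of at least 50 counts, and lower by at least 2-fold were 35, or 5.19% against 3.27% and 4.17%. In those named loci, 30.0% were higher and 38.6% lower. The median log2 fold change was 0.13 over the unnamed loci, 0.05 over all loci tested and -0.05 over these named loci. A mean over both groups admits a locus through 1 group only: 544 loci held 50 counts in both group means, with 130 higher and 96 lower and a median of 0.11. Of these 544 loci, 30 (5.5%) were higher and 17 (3.1%) lower by at least 2-fold. Another 83 passed through the cytokine group only, 54 of them higher, and 48 through the control group only, 32 of them lower. These directions come with the way they passed. Among them were 40 of the 70 rises and 18 of the 35 falls of at least 2-fold, so the larger 2-fold shares above come with the filter as well.

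The shares called were set side by side within bands of level. At 50 to 100 counts 22.4% of unnamed and 22.3% of named loci were higher, and 14.6% and 14.7% were lower. At 100 to 1000 counts 31.8% of unnamed loci were higher and 20.4% lower, against 27.3% and 34.0% of named loci. Among the 30 unnamed loci of at least 1000 counts, 9 were higher (30.0%) and 15 lower (50.0%), against 32.9% and 45.3% of named loci of that level.

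Of the 524 loci with named loci in the bundle, 151 were higher and 83 lower, with a median log2 fold change of 0.17. Of the 117 loci alone, 21 were higher (17.9%, against 18.0% of all loci tested) and 32 lower (27.4%, against 19.7%), with a median of -0.07. Among the 69 alone with no annotated gene, 12 were higher and 20 lower, and among the 46 with an annotated exon 9 were higher and 11 lower. The difference between the settings was not tested.

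**Figure D1:**
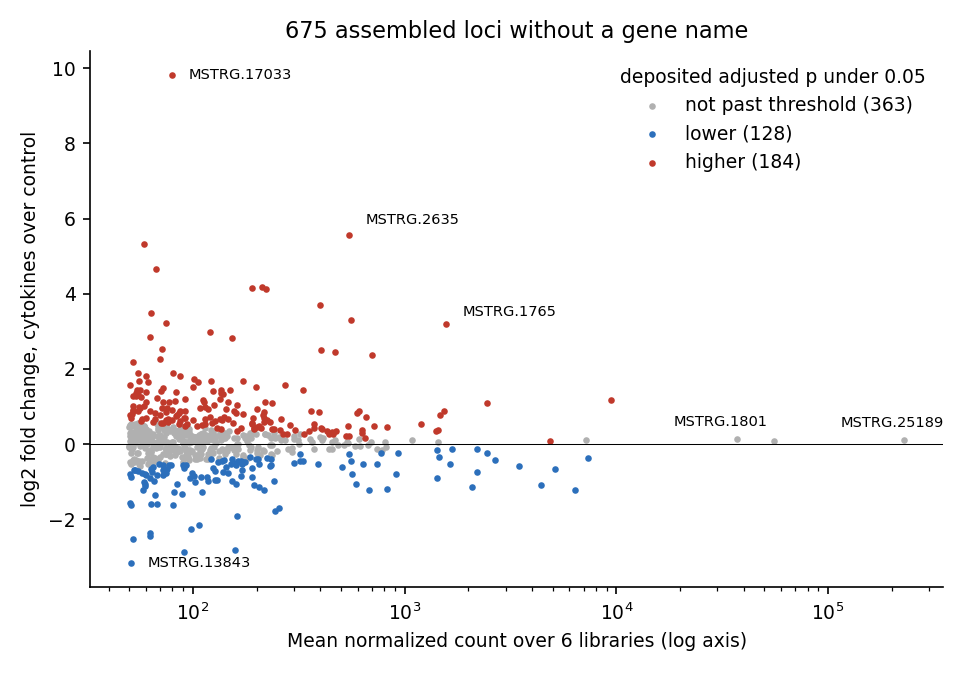
Each point is 1 of the 675 unnamed loci, with its mean normalized count over 6 libraries on a log axis against the log2 fold change of cytokines over control, both from the authors' deposited table, coloured by the deposited adjusted p. The 184 higher and 128 lower loci crowd at low counts, and the 3 most counted loci sit near no change.

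The largest rises began from few reads. MSTRG.17033 lies alone at chr17:47715761-47718080, where GENCODE 44 has no gene, 3.7 kb from TBKBP1, which encodes an adaptor of the kinase TBK1. Its control mean was 0.176 counts and its cytokine mean 159, so that, with 3 reads in all control libraries together as the lower limit, it was at least 158-fold higher. The authors' deposited table gives a fitted log2 fold change of 9.81 ± 1.19 (SE; DESeq adjusted p = 1.38e-15), and the locus was listed at 0 FPKM in control and 3.39 with cytokines. The locus that holds TBKBP1 rose by far less, with a log2 fold change of 0.77.

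MSTRG.11880 is alone at chr14:103266596-103274484, also without an annotated gene, 59060 bases from the nearest coding gene, EIF5. It went from 2.86 to 115 counts, and the authors' deposited table gives 5.33 ± 0.53 (SE; DESeq adjusted p = 3.12e-23). MSTRG.7284, alone at chr11:112746524-112751120, overlaps a long noncoding RNA of GENCODE 44 and lies 210155 bases from NCAM1. It went from 14.4 to 135 counts, with a log2 fold change of 3.23 ± 0.28 in the authors' deposited table (SE; DESeq adjusted p = 3.83e-29). MSTRG.25567 is alone at chr21:41767202-41776747, 113 bases from the annotated start of RIPK4, a kinase gene. It went from 38.0 to 266 counts, a log2 fold change of 2.81 ± 0.19 in the authors' deposited table (SE; DESeq adjusted p = 1.25e-48). RIPK4 itself had a log2 fold change of 0.51 and also passed.

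A stretch of chromosome 2 far from any coding gene held a pair of rises. MSTRG.21164 and MSTRG.21163 share the bundle chr2:13440903-13533382, 698169 bases from TRIB2, and GENCODE 44 has no gene there. MSTRG.21164 went from 23.9 to 417 counts and MSTRG.21163, with 12 transcripts, from 57.3 to 739, with log2 fold changes of 4.13 ± 0.20 and 3.69 ± 0.13 (SE) in the authors' deposited table. On chromosome 6, MSTRG.34817 at chr6:157239723-157272548 shares its bundle with the unnamed MSTRG.34818, which was higher as well, with a log2 fold change of 1.18. MSTRG.34817 went from 20.3 to 360 counts, while TMEM242, in the next bundle 1001 bases away, did not pass, with a log2 fold change of 0.05.

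Several of the largest rises lay in bundles whose most counted named locus moved little or fell. MSTRG.2635, a single transcript in the bundle of ASH1L, YY1AP1, DAP3 and GON4L at chr1:155335268-155859400, went from 22.6 to 1069 counts, a log2 fold change of 5.57 ± 0.18 in the authors' deposited table (SE; DESeq adjusted p = 9e-198). The most counted named locus there, with ASH1L, a histone methyltransferase gene, and YY1AP1, had a log2 fold change of 0.10, and the locus of MSTO1 and MSTO2P one of 0.72. Cuffdiff put MSTRG.2635 at 0.132 and 27.9 FPKM without a pass (q = 0.145). MSTRG.23032, in the bundle of KLHL23 and PHOSPHO2, rose from 22.3 to 403 counts, while the locus of those genes fell by 0.29 on the log2 scale and the pseudogene PTCHD3P2 rose by 2.38. MSTRG.2428 and MSTRG.2208, in bundles of PDE4DIP and of NBPF26 on chromosome 1, rose from 27.3 to 215 and from 15.3 to 111 counts. Cuffdiff did not call MSTRG.2428 (q = 0.222). It did not test MSTRG.2208, which it listed at 0 FPKM in control and 0.0123 with cytokines. Both bundles hold a stretch of 240 bases with 88.3% identity to 28S ribosomal RNA, whose part in these values was not tested.

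**Figure D2:**
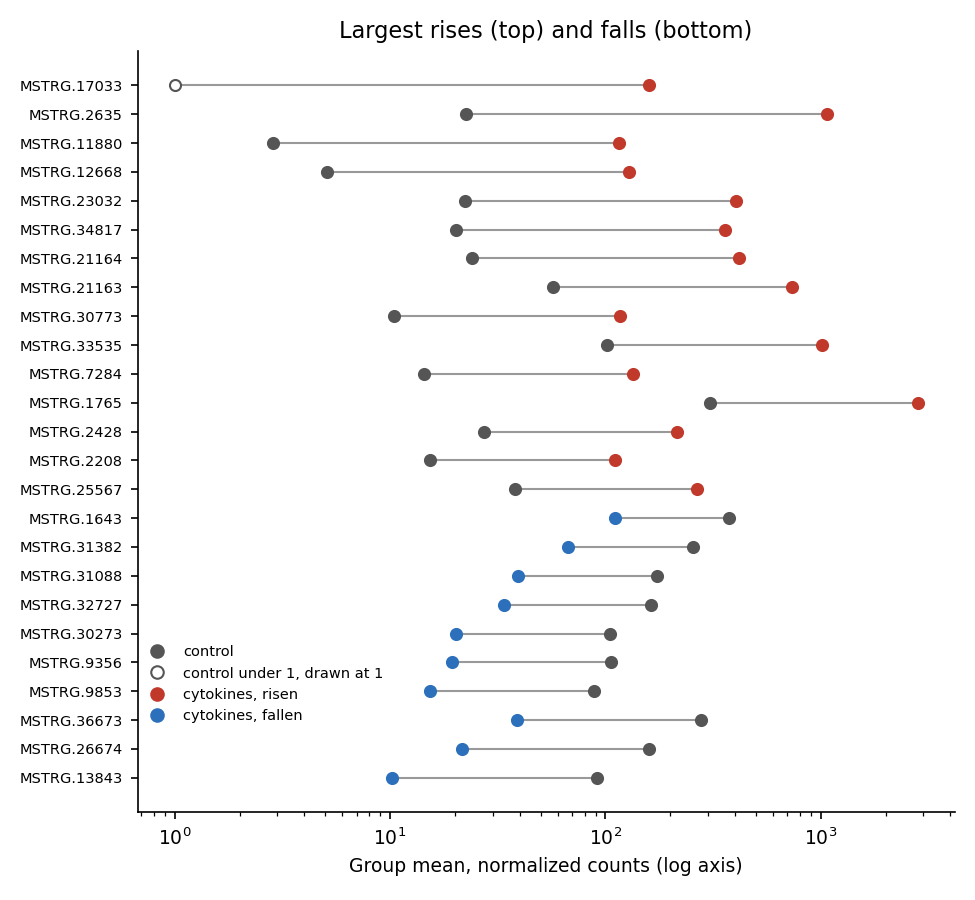
Group means in normalized counts on a log axis for the 15 largest rises and 10 largest falls, worked out from the mean and fold change in the authors' deposited table, with control in grey and cytokines in red or blue. An open circle stands for MSTRG.17033, whose control mean of 0.176 is drawn at 1, and no error bars are drawn because the tables hold no values per library.

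The list of 81 interferon-response genes had 8 unnamed loci in the same bundle or within 10 kb. Of these, 5 were higher, 2 lower and 1 not past, with a median log2 fold change of 1.51 beside 0.05 over all loci tested. MSTRG.30773 (10.5 to 117 counts) and MSTRG.25808 (25.4 to 75.8), both higher, held the threshold mean count in the cytokine group only. MSTRG.26298 (65.4 to 40.6), lower, held it in the control group only. The directions of these loci come with the way they passed, so the list's counts and median do not compare directly with all loci. MSTRG.1765, MSTRG.4887 and MSTRG.30013, higher, and MSTRG.23419, lower, held it in both groups. Over all loci tested 18.0% were higher and 19.7% lower, and the counts for the lists that follow stand beside the same shares. MSTRG.1765, in the bundle of GBP2 and GBP7 at chr1:89067825-89179703, went from 307 to 2817 counts and from 10.7 to 96.2 FPKM, a log2 fold change of 3.20 ± 0.06 in the authors' deposited table (SE). Guanylate-binding proteins are interferon-induced GTPases, and the locus of GBP2 and GBP7 went from 15.9 to 2521 counts. MSTRG.1765 was thus the locus of its bundle with the higher FPKM, 96.2 against 25.1 with cytokines. Of its 7 transcripts, the first held 8.25 FPKM in control and 71.2 with cytokines.

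MSTRG.4887, in the bundle of the IFIT genes, whose products bind foreign RNA, went from 121 to 685 counts, against 43.6 to 15209 counts at IFIT3. MSTRG.30773 shares a bundle with IRF2, an interferon regulatory factor, and went from 10.5 to 117 counts, a log2 fold change of 3.48 ± 0.32 in the authors' deposited table (SE), beside 1.93 at IRF2. MSTRG.30013 in the bundle of HERC6 had a log2 fold change of 1.45. MSTRG.25808 had one of 1.58, which Cuffdiff did not call (q = 0.173). USP18, which removes ISG15 from proteins, lies in the next bundle and rose by 1.14, while the most counted locus of MSTRG.25808's own bundle, with PEX26 and TUBA8, had a log2 fold change of -0.13. Neither of the 2 falls was called by Cuffdiff. MSTRG.26298, alone at chr22:36220625-36222054 and 4149 bases from APOL2, went from 65.4 to 40.6 counts (log2 fold change -0.69 ± 0.27, SE; DESeq adjusted p = 0.0270 in the authors' deposited table; Cuffdiff q = 0.0554), while APOL2 rose by 3.67. MSTRG.23419, in the bundle of the caspase gene CASP8, went from 592 to 495 counts (Cuffdiff q = 0.238), while CASP8 rose by 2.66 and CASP10, in a neighbouring bundle, by 6.21. MSTRG.2541 beside ADAR, an RNA-editing enzyme, was at 240 and 235 counts while ADAR rose by 1.38.

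Both unnamed loci beside the 34 antigen-presentation genes rose. MSTRG.12668 held the threshold mean count in the cytokine group only, so its direction comes with the way it passed. MSTRG.12668 lies in the B2M bundle at chr15:44711477-44718877, and B2M encodes the light chain of MHC class I. It went from 5.08 to 129 counts, a log2 fold change of 4.67 ± 0.41 in the authors' deposited table (SE; DESeq adjusted p = 1.71e-28), beside 4.08 at B2M, while Cuffdiff did not call it (q = 0.287). MSTRG.33535 lies in the bundle of RPS18, RGL2 and TAPBP, the last encoding tapasin of the peptide-loading complex, and went from 102 to 1010 counts, with 3.31 ± 0.11 (SE) in the authors' deposited table. The locus that joins RGL2, TAPBP and ZBTB22 rose by 1.10 and that of RPS18 fell by 0.32. Of 4 unnamed loci near NF-κB genes, MSTRG.7808 near C1S rose by 1.67. C1S, in a neighbouring bundle, rose by 1.45, and the named locus beside MSTRG.7808, that of PTPN6, by 0.54. MSTRG.20266 near RELB, MSTRG.21846 near REL and MSTRG.6568 near RELA did not pass. RELB, also in a neighbouring bundle, had a log2 fold change of 2.19.

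The list of 40 beta cell genes had 21 unnamed loci nearby, with 5 higher, 4 lower and 12 not past, shares near the 18.0% and 19.7% of all loci tested, and a median log2 fold change of 0.14. MSTRG.5604, in the bundle of INS, IGF2 and TH at chr11:1852970-2318200, fell from 8936 to 3870 counts, a log2 fold change of -1.21 ± 0.04 in the authors' deposited table (SE), while the locus that joins INS, IGF2, H19 and ASCL2 fell by 0.57 on the log2 scale. MSTRG.5623 in the same bundle was at 124 and 147 counts and did not pass. MSTRG.11719, in the bundle of chromogranin A (CHGA), a core protein of secretory granules, rose from 5826 to 13061 counts, a log2 fold change of 1.16 ± 0.03 in the authors' deposited table (SE) beside 1.12 at CHGA. Both bundles were too deep for Cuffdiff, which listed them at 0 FPKM.

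The bundle of PTPRN2, a granule phosphatase-like protein and autoantigen of type 1 diabetes, held 4 unnamed loci at chr7:157539056-158587788. MSTRG.37186 went from 1940 to 1339 counts, and it, MSTRG.37178 and MSTRG.37172 had log2 fold changes of -0.53, -0.69 and -0.74, near -0.43 at PTPRN2, while MSTRG.37190, with 72 transcripts, did not pass (0.16). Cuffdiff did not call MSTRG.37178 (q = 0.783) or MSTRG.37172 (q = 0.549). The bundle of PAX6, a transcription factor of endocrine cells, held 5, of which MSTRG.6161 and MSTRG.6163 rose by 1.33 and 0.65 and MSTRG.6154, MSTRG.6155 and MSTRG.6157 did not pass, with PAX6 at -0.22. Cuffdiff called neither MSTRG.6161 nor MSTRG.6163 (q = 0.625 for both). Loci beside NEUROD1, NKX6-1, RFX6, SLC2A2 and PCSK2 did not pass. Near INSM1, MSTRG.24365 rose by 0.53 and MSTRG.24362 did not pass.

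Of 4 unnamed loci near genes of the unfolded protein response, MSTRG.24072 in the bundle of TRIB3 rose by 1.81, beside 1.62 at RBCK1 and 0.08 at TRIB3 there, while Cuffdiff did not call it (q = 0.444). MSTRG.24067, alone and near the same gene, did not pass. MSTRG.32829, in the bundle of RNF130, fell by 0.78 on the log2 scale beside a fall of 0.73 at RNF130, while the chaperone gene CANX, in a neighbouring bundle, rose by 0.62. MSTRG.26167, in the bundle of XBP1 and EWSR1, fell by 0.83 on the log2 scale and was not called by Cuffdiff (q = 0.561). MSTRG.24072 (38.7 to 136 counts) held the threshold mean count in the cytokine group only, and MSTRG.26167 (86.5 to 48.7) in the control group only. The directions of both come with the way they passed. XBP1 was listed at 0 counts and was not tested, so its direction is not known here. EWSR1, at 13470 counts, had a log2 fold change of 0.16.

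The largest falls were smaller than the largest rises. MSTRG.13843, alone at chr16:1126645-1134983 and without an annotated gene, fell from 91.6 to 10.2 counts, a log2 fold change of -3.16 ± 0.35 in the authors' deposited table (SE; DESeq adjusted p = 6.43e-19). CACNA1H, a T-type calcium channel gene whose bundle starts 1220 bases away, fell by 1.07 on the log2 scale. MSTRG.26674 shares a bundle with FAM19A5, which encodes a secreted peptide, and fell from 159 to 21.6 counts (-2.88 ± 0.25, SE, in the authors' deposited table), with FAM19A5 at -2.12. MSTRG.1643 fell from 376 to 111 counts in the bundle of ST6GALNAC5, a sialyltransferase gene, with -1.77 beside -1.69 for that gene. MSTRG.9853 fell from 88.7 to 15.3 counts in the bundle of MIPEP, a mitochondrial peptidase gene, with -2.53 beside -0.61.

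For the other falls, the named locus beside them did not pass the test, had no adjusted p or was lacking. AC105443.2, beside MSTRG.36673, held a mean of 0.339 counts (SE of the log2 fold change 3.18) and had no adjusted p. RP11-375B1.1, beside MSTRG.32727, held 2.37 counts (SE 1.30). Such counts are too few to tell whether these named loci changed. MSTRG.36673, at chr7:132078245-132092204 and 31136 bases from PLXNA4, fell from 277 to 39.0 counts, a log2 fold change of -2.83 ± 0.19 in the authors' deposited table (SE; DESeq adjusted p = 7.98e-50). MSTRG.9356, alone on chromosome 12 and 9986 bases from MED13L, a Mediator kinase-module gene, fell from 106 to 19.5 counts, while MED13L had a log2 fold change of 0.01 and did not pass. MSTRG.30273 on chromosome 4 and MSTRG.31088 on chromosome 5, both alone with no annotated gene and no named locus within 10 kb, fell from 105 to 20.3 and from 174 to 39.4 counts. MSTRG.32727 has 33 transcripts and fell from 162 to 33.7 counts, and MSTRG.31382, whose bundle overlaps the coding gene CWC27, fell from 255 to 67.1 counts.

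Unnamed loci went the way of the named locus beside them more often than not. The named locus was taken as the most counted one in the bundle or, failing that, in the nearest bundle within 10 kb, a choice made after the bundle structure was seen. Such a locus existed for 628 of 675, with no lower limit set on its counts, so that some named loci with very few reads are included. Where both passed the threshold, 138 of 199 pairs moved the same way and 61 in opposite ways. Of the unnamed loci that rose, 81 stood beside a named rise and 47 beside a named fall, and of those that fell, 57 stood beside a named fall and 14 beside a named rise. Spearman's rho between the 2 log2 fold changes was 0.36 over 619 pairs, which share libraries and, within a bundle, possibly reads. With the named locus in another bundle, 16 of 21 pairs moved the same way and rho was 0.30 over 101 pairs. Of the 70 rises of at least 2-fold, 13 had a named neighbour that rose by at least 2-fold, and of the 35 such falls 8 had one that fell as far.

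**Figure D3:**
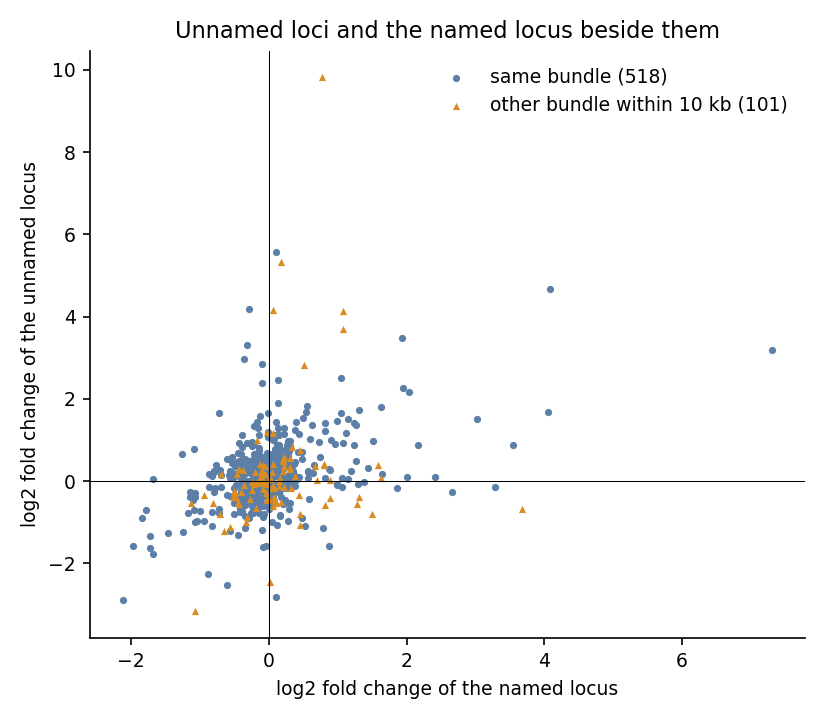
Log2 fold change of each unnamed locus (vertical) against that of the named locus beside it (horizontal), both from the authors' deposited table, for 518 pairs in 1 bundle and 101 pairs in neighbouring bundles. Most points crowd near 0, and the rises above 4 on the vertical axis, except MSTRG.12668 beside B2M, lie between -0.29 and 1.07 on the horizontal one. The value of 1.07 is that of AC092635.1, which held a mean of 0.154 counts (SE 4.08) and had no adjusted p.

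Where at least 2 unnamed loci of a bundle passed the threshold, they mostly moved the same way. Of 59 bundles with more than 1 unnamed locus of at least 50 counts, 21 held at least 2 that passed in 1 direction only, and 2 held both a rise and a fall. The other bundles held fewer than 2 that passed, so their directions could not be compared. Loci that did not pass are left out of these counts.

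The loci were spread unevenly over chromosomes. There were 4.85 unnamed loci per 100 named loci of at least 50 counts over all, and 10.6 on chromosome 7, 10.2 on chromosome 21 and 9.57 on chromosome 22, against 2.15 on chromosome 15 and 2.39 on chromosome 18. Chromosome 7 held 72 loci in 43 bundles, with 20 higher and 17 lower. A single bundle of duplicated genes there, chr7:102480078-102691174 with POLR2J2, POLR2J3 and RASA4, held 16 of them, whose log2 fold changes lay between -0.29 and 0.58 with 4 higher and none lower. Reads of near-identical copies can be split by the counting, so these values are uncertain. Without that bundle chromosome 7 had 8.25 per 100. Chromosome 21 held 20 loci in 11 bundles, and bundles there with a match to ribosomal RNA, described below, held 5, 3 and 3 of them. Its ratio thus rests in part on ribosomal bundles. On chromosome 14, 7 of 16 loci were higher and 0 lower, next to 145 higher and 150 lower of 456 named loci. On chromosome 8, 1 of 13 was higher and 7 lower, next to 138 higher and 180 lower of 475 named loci. Both are among the most one-sided chromosomes, the counts are small, and differences between chromosomes were not tested.

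**Figure D4:**
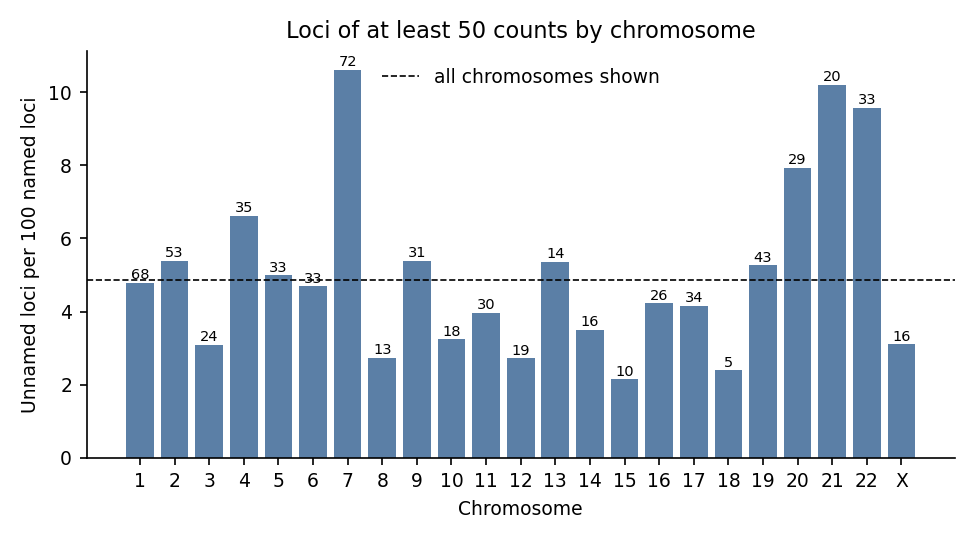
Unnamed loci per 100 named loci, both of at least 50 counts, for chromosomes 1 to 22 and X, with the number of unnamed loci above each bar and a dashed line at 4.85 for all of them. Chromosomes 7, 21 and 22 are the highest bars and chromosome 15 the lowest.

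Most reads of the unnamed loci came from bundles with ribosomal RNA. MSTRG.25189 alone held 45.3% of their counts, and with MSTRG.25185 and MSTRG.1801 the share was 63.8%. MSTRG.25189 was at 220758 control and 236490 cytokine counts and MSTRG.25185 at 53990 and 57683, both in the bundle chr21:8197620-8260961, which contains the 18S, 5.8S and 28S genes RNA18SN2, RNA5-8SN2 and RNA28SN2. Their log2 fold changes were both 0.10, with SE of 0.20 and 0.21 in the authors' deposited table, and neither passed. MSTRG.1801, whose bundle holds the 28S-like stretch printed above within HFM1, was at 35504 and 39084 counts (0.14 ± 0.20, SE, in the authors' deposited table), and Cuffdiff put it at 0.0793 and 0.311 FPKM. MSTRG.37910 on chromosome 8, in a bundle with a 28S-like stretch of 372 bases at 95.4% identity, was at 6907 and 7434 counts, and neither tool called it. Its neighbour SLCO5A1 rose by 2.01.

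These 4 loci were less precise than others as deep. Their SE was 0.16 to 0.21, against 0.028 to 0.066 in the other 26 unnamed loci of at least 1000 counts, and only 36 of 7838 named loci of that level had an SE of at least 0.16. In all, 20 unnamed loci in 10 bundles with a ribosomal match of at least 100 bases held 65.9% of the counts of the unnamed loci, and 6 of them were higher and 1 lower. The protocol selected poly(A) RNA, and how much ribosomal RNA each library kept was not tested.

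**Figure D5:**
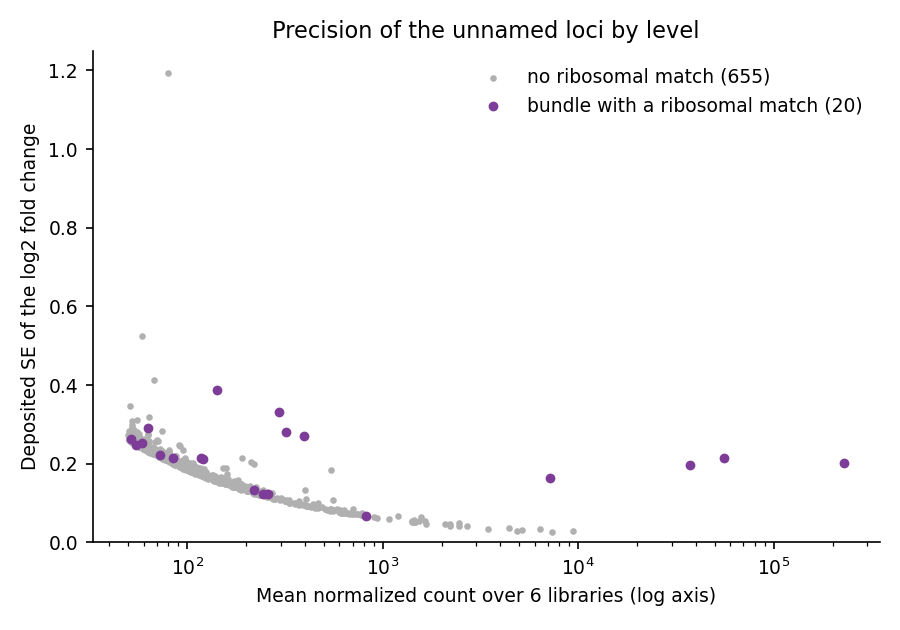
Deposited SE of the log2 fold change against mean normalized count (log axis) for the 675 unnamed loci, with the 20 in bundles with a ribosomal match in purple. SE falls with level in the grey points, while the 4 purple points above 1000 counts stay between 0.16 and 0.21.

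Outside the ribosomal bundles, the most counted unnamed loci stood beside histone, integrin and endocrine genes, some of them pseudogenes. MSTRG.35590, in the bundle of H2AFV (a histone H2A.Z variant gene), fell from 6010 to 2825 counts, a log2 fold change of -1.09 ± 0.04 in the authors' deposited table (SE), beside -0.82 at H2AFV. MSTRG.18336, with 66 transcripts in the bundle of NOL4, fell from 6288 to 3981 counts and from 54.1 to 33.3 FPKM (-0.66), beside -0.16 at NOL4. MSTRG.23099 fell from 8229 to 6422 counts (-0.36) beside the histone pseudogene H3F3AP4 at -0.41, and MSTRG.19465 was at 4716 and 5011 counts (0.09 ± 0.03, SE; DESeq adjusted p = 0.00947 in the authors' deposited table; Cuffdiff q = 0.975) beside the integrin pseudogene ITGB1P1 at -0.06. MSTRG.23099 was listed at 0 FPKM in both groups by Cuffdiff.

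A pair of deep loci matched transcripts from elsewhere in the genome, and were singled out after that match was seen. MSTRG.14723, alone at chr16:35802179-35802731, matched HMGN2, a nucleosome-binding protein gene, over all 553 bases with 97.8% identity and 12 mismatches, at bases 629 to 1181 of a transcript whose coding part ends at base 443. Its log2 fold change was -0.57, beside -0.54 at HMGN2 in the authors' deposited table. MSTRG.38363 on chromosome 8 matched HNRNPA1, which encodes a splicing regulator, over all 358 bases with 98.6% identity, and its log2 fold change was -0.35 beside -0.49. Reads of these loci and of the genes they match may be shared, so their values are uncertain.

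Cuffdiff called fewer of the unnamed loci. It tested 632, set aside 30 as too low and 13 as too deep, and called 95 higher and 86 lower at q under 0.05, against 17.8% and 17.9% of all 21865 loci that it tested. Those set aside as too low include MSTRG.1801 and MSTRG.23099, although their means in the count table were 37294 and 7325. Both tools called 84 higher and 74 lower. The count table alone called 89 higher and 50 lower among loci that Cuffdiff tested, Cuffdiff alone 11 and 12, and no locus was called in opposite directions. Spearman's rho between the fold changes of the 2 tools was 0.94 over 631 loci, as a description of values from the same libraries. At least 1 FPKM in both groups was reached by 324 loci, and 19 were listed at 0 FPKM in both, although each held at least 50 counts.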

How the data were processed

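RNA of 6 EndoC-βH1 libraries was compared, 3 control and 3 with cytokines. Per the submitters' processing notes, the authors' tools were STAR 2.5.2b, build hg38, StringTie, DESeq and Cuffdiff 2.2.1, with bcl2fastq and FastQC 0.10.1. How reads were counted, with which annotation and strand setting, is not stated. In the authors' count tables the deposited signal is a mean normalized count over 6 libraries. As deposited by the authors, log2 columns give the fold change of cytokines over control and its SE. A deposited score column holds each tool's test statistic. Each p-value, adjusted p-value and q-value was deposited by the authors from DESeq or Cuffdiff. FPKM values are group values of Cuffdiff as deposited, per the file headers. The unnamed table has no header, and its columns were taken to be those of the named table, since its statistic equals the fold change over its SE within 1.42e-13.

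The tables hold no values per library, so the tests planned on counts were replaced by the deposited adjusted p at 0.05, and adjusting the deposited p-values by Benjamini-Hochberg over the named and unnamed tables jointly returned it within 1.53e-15. Control means were computed from the mean and the fold change. The mean library held 40881975 normalized counts, so 50 counts are few, and the SE carries the precision. Positions were counted from 1 and compared with hg38, where all 25 chromosomes of the tables were found and 0 loci ended past a chromosome. Annotation was GENCODE 44. Matches to ribosomal RNA (at least 100 bases, 80% identity) and to coding transcripts (at least 300 bases, 90% identity) came from blastn 2.17.0, and the latter were sought for loci alone in their bundle. Analyses used Python 3.11.15, pandas 2.3.3 and scipy 1.17.1. The code for group means, Benjamini-Hochberg adjustment, the re-centring shift and the reading of positions was checked on simulated or made-up values. The code for sequence matches, motif counts, gene overlaps and pairing with named loci was not checked in that way.

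Named loci are the 15 largest rises and 10 largest falls past the threshold, the 10 highest means, 3 on each side of the threshold and those within 10 kb of a listed gene. No locus lacked a test and none was called in opposite directions. Some results are not reported here. The loci and gene lists were chosen with earlier results of these data known.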

Additional observations from a re-analysis of the deposited data

How the results depend on the processing

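Both directions and the median depend on which loci are admitted. Higher and lower calls were 283 and 184 at a mean of at least 20 counts, 112 and 81 at 100, 130 and 96 with 50 counts in both groups, and 70 and 35 at a 2-fold change. Cuffdiff q gave 95 higher. The 84 loci with no annotated gene and no named locus in the bundle gave 19 and 25, and, in settings chosen after seeing the data, the 117 loci alone gave 21 and 32 and a median log2 fold change of -0.0725 in place of 0.13. Loci without a gene had a median of -0.04. An adjusted p under 0.01 gave 157 and 105, and leaving out bundles with a ribosomal match 178 and 127. Re-centring on loci of at least 1000 counts, a shift of -0.06, gave 207 and 115. With at least 1 FPKM in both groups, Cuffdiff called 49 higher and 48 lower. Loci whose bundle shares a base with a gene were 87.4%, while for 77.8% of loci at least 50% of the bundle's length lay in genes, for 68.3% the bundle touched a coding gene and 41.0% of loci alone touched any gene. The share of pairs moving the same way was 69.3%, and 76.2% with the named locus outside the bundle. Among 61 named loci with a Cuffdiff fold, 42 kept direction and side of the threshold, 14 lost the call and 5 changed sign: MSTRG.21846 (0.0340), MSTRG.24362 (0.0332), MSTRG.28661 (-0.0315), MSTRG.29934 (-0.0585) and MSTRG.37910 (-3.09), none of which passed in either table. The cause of these changes was not tested, other than that fewer loci were counted at stricter settings. No paired analysis was possible because the deposited tables hold no values per library, and leaving out a replicate, other size factors, edgeR and fits without a filter were not run for that reason.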
